A study of Homo sapiens with 4 samples.

Results

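Tubule injury and repair genes are switched on in the kidney epithelium when proximal tubule cells are damaged, dedifferentiate and repopulate the nephron. The 10 genes described here were taken from a list of gene names, HAVCR1, LCN2, SPP1, CLU, CCL2, VCAM1, CD44, ITGB6, SOX9 and PROM1, and are 10 of 20037 protein-coding genes on assembled chromosomes. A FOXK1 peak was counted for a gene when it overlapped the annotated gene body plus 5 kb on each side. This gave 107 of 381700 peaks in the list from untreated cells, called control here, and 117 of 439136 in the list from cells given TGF-β1.

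The cells were HK-2, an immortalised line of human proximal tubular epithelium. In both groups chromatin was fixed, cut with micrococcal nuclease, sonicated and precipitated with an antibody to FOXK1, and each FOXK1 library was set against an input library of the same group. The control group had no TGF-β1 and the treated group had 10 ng/ml of this fibrosis-promoting cytokine for 24 hours. Each condition had 1 FOXK1 library, so no value below has a replicate error or a test, and a difference between the lists is one between 2 libraries. The value of a peak is the authors' pileup height, a whole number of at least 3 that moves with sequencing depth, and depth is unknown, so heights of the 2 lists stand side by side and are no measure of change. The lists hold no transcript levels, so the proximal tubule identity of the cells was not checked here.

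FOXK1 is a forkhead transcription factor whose family binds a short A-rich core and acts on metabolic, autophagy and cell cycle genes. Injured tubule cells put the phosphatidylserine receptor HAVCR1 (kidney injury molecule) on their surface and secrete lipocalin, osteopontin and clusterin. They also attract leukocytes with chemokines and adhesion receptors. Cells that fail to repair keep such genes on and can sustain inflammation and fibrosis in the surrounding tissue.

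The sequences before 5 start sites are shown because 4 of them lay under or next to a peak in both lists and the VCAM1 site had none nearby. Each is the RefSeq sequence (GRCh38.p14) of the 250 bases before the start, 5′ to 3′ on the strand of the gene. Capitals mark the forkhead core AAACA or its other strand, TGTTT. The windows of ITGB6 and of the PROM1 start at 16083729, not printed, also held the core. Neither start had a peak within 1 kb in either list. Whether the core goes with a peak was not tested.
HAVCR1, chr5:157059117-157059366, minus strand: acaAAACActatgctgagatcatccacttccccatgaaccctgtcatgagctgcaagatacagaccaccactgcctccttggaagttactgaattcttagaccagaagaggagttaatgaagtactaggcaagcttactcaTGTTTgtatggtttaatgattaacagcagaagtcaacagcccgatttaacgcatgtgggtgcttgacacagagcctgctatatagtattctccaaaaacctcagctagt
LCN2, chr9:128149203-128149452, plus strand: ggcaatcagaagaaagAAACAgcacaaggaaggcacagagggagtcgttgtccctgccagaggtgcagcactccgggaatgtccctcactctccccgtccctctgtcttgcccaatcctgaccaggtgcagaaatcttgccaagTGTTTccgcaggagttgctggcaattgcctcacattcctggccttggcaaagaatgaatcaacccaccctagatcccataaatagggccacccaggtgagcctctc
SPP1, chr4:87975464-87975713, plus strand: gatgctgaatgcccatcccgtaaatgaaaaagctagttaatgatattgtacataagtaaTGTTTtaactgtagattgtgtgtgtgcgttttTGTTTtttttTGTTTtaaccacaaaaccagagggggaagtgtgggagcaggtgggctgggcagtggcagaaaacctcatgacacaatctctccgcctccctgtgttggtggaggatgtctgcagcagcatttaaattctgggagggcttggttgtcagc
CD44, chr11:35138921-35139170, plus strand: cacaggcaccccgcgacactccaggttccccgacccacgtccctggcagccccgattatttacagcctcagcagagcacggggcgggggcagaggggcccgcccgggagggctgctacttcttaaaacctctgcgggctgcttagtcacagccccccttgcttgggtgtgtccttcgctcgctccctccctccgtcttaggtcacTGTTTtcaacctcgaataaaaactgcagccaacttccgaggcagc
VCAM1, chr1:100719492-100719741, plus strand: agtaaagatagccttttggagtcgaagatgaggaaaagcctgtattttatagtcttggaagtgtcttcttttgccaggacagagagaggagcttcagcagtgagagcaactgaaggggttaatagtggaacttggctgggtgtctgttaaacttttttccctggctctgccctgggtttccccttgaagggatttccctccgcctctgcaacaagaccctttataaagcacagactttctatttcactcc

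Of the longer forkhead motifs only GTAAACA and ATAAACA were searched, on both strands, and other forms of the motif were not. These motifs were in none of the 10 windows of this length that the table held for 7 of the genes, 4 of them for PROM1. Of 22183 such windows of protein-coding genes, 2.5% held GTAAACA and 2.9% ATAAACA. The core AAACA, which lies within both motifs and was added after the data were seen, was in 34.5% of them. It occurred 2 times before HAVCR1, 2 times before LCN2, 3 times before SPP1, 1 time before CD44 and 1 time before ITGB6, and 0 times before VCAM1. Of the 4 PROM1 windows, 2 held it. The AP-1 motif TGACTCA, found in 3.4% of windows, was present before 1 of the 4 PROM1 starts and before none of the other genes. The windows differed in base composition, with a GC content of 43.2% before HAVCR1, 44.8% before SPP1, 54.8% before LCN2 and 62.4% before CD44. Among the genes with no start-site peak in the control list it was 46.0% before VCAM1, 30.0% before ITGB6 and 56.8% to 68.8% before the 4 PROM1 starts. The median over all windows was 62.0%. The table held no window for CLU, CCL2 and SOX9.

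A peak of some height was near every one of the 10 genes in both lists, but the same held for 94.7% (control) and 94.8% (TGF-β1) of all protein-coding genes. High peaks told the genes apart. A peak was called strong when it was at least as high as the 10000th highest of its list, which meant a height of 17 in the control and 15 in the TGF-β1 list. In each list 4 of the 10 genes had a strong peak, beside 31.1% and 29.9% of all protein-coding genes. HAVCR1, CD44 and ITGB6 were strong in both lists, SPP1 in the control list only and VCAM1 in the TGF-β1 list only, and the other 5 in neither. Long genes offer more room for peaks. Strong peaks were found at 47.8% (control) and 47.8% (TGF-β1) of genes whose window spanned 100 kb or more. Below that length the shares were 27.2% and 25.8%. CD44, ITGB6 and PROM1 had the long windows here, and 2 of these 3 were strong in each list, as were 2 of the 7 shorter genes.

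**Figure D1:**
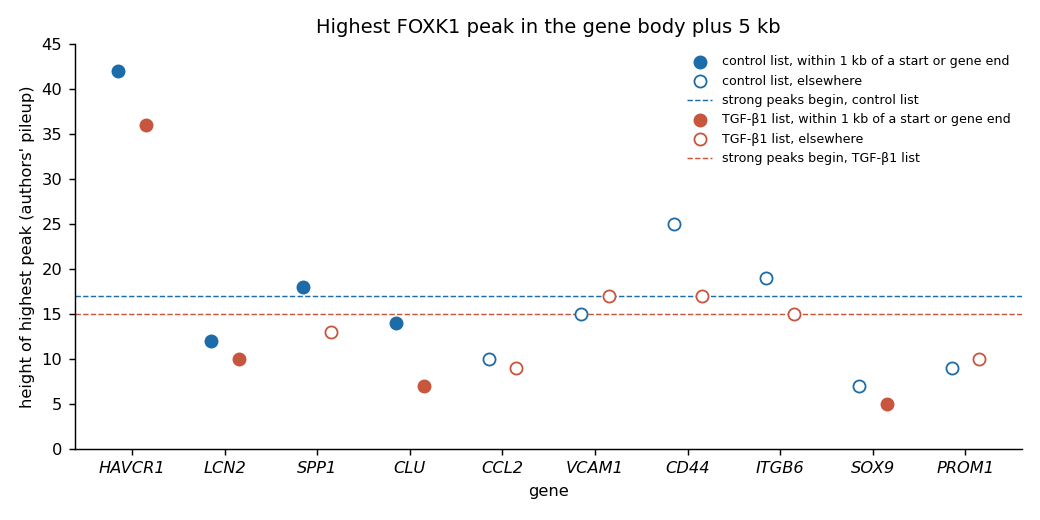
Height of the highest FOXK1 peak (vertical axis, the authors' pileup height) in the gene body plus 5 kb of each gene, for the control list (blue) and the TGF-β1 list (red). Filled points lie within 1 kb of a start or gene end, open points elsewhere, and dashed lines are the heights of 17 and 15 at which strong peaks begin. HAVCR1 stands highest with 42 and 36, and SOX9 lowest with 7 and 5.

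In the control list the highest peaks ran from 42 at HAVCR1, 25 at CD44, 19 at ITGB6, 18 at SPP1, 15 at VCAM1, 14 at CLU, 12 at LCN2 and 10 at CCL2 to 9 at PROM1 and 7 at SOX9. In the TGF-β1 list HAVCR1 had 36, VCAM1 and CD44 each 17, ITGB6 15, SPP1 13, LCN2 and PROM1 each 10, CCL2 9, CLU 7 and SOX9 5. HAVCR1 was thus first and SOX9 last in both, and without replicates the order of close neighbours cannot be resolved. The median over the 10 genes was 14.5 and 11.5, against 12 and 10 over all protein-coding genes. The highest peak of the 2 lists lay at overlapping places for 6 genes (HAVCR1, LCN2, VCAM1, CLU, CCL2 and ITGB6) and at different places for CD44, SPP1, SOX9 and PROM1.

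At start sites, FOXK1 peaks lay within 1 kb for 4 of the 7 genes with a known start in the control and 5 of 7 in the TGF-β1 list, beside 71.0% and 70.0% of all genes with a start in the table, where any tabulated start counted. HAVCR1, LCN2, SPP1 and CD44 had one in both lists, PROM1 in the TGF-β1 list only, and VCAM1 and ITGB6 in neither. Start-site peaks of height 10 or more were present at 3 of the 7 genes (HAVCR1, SPP1 and LCN2) in the control list and at 2 (HAVCR1 and LCN2) in the TGF-β1 list, beside 41.8% and 34.4% of all genes. For CLU, CCL2 and SOX9, whose start and strand were not in the table, the distance to either gene end was used. CLU and SOX9 had a peak within 1 kb of an end in both lists and CCL2 in the TGF-β1 list only, that is 2 and 3 of 3 genes, beside 69.4% and 67.4% of all genes treated this way.

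HAVCR1, the receptor by which injured tubule cells engulf apoptotic debris, carried the highest peak of the 10 genes. The gene lies on chromosome 5 from 157029413 to 157069407 (hg38, minus strand), and its tabulated start at 157059116 is 10.3 kb inside the annotated higher end. The start was covered in the control list by a peak of height 42 from 157058302 to 157060261 and in the TGF-β1 list by one of 36 from 157057410 to 157060584. The control peak lay wholly within the TGF-β1 peak, so the HAVCR1 start was a common site. Only 1235 control peaks and 1376 TGF-β1 peaks in the whole lists were as high or higher, and 5.01% and 5.15% of protein-coding genes had a highest peak at or above these heights. Both peaks covered the whole sequence printed for HAVCR1, including its 2 core matches, which begin 247 and 109 bases before the start.

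A second HAVCR1 site lay inside the gene, 12.9 kb past the start by its midpoint in either list. Its heights were 35 in the control list, from 157045912 to 157046511, and 15 in the TGF-β1 list, from 157045863 to 157046582. Both were strong, although in the control list 1965 peaks were as high and in the TGF-β1 list 11342. Between this site and the start, a pair of overlapping peaks had a height of 11 in each list. Farther past the start than the second site, a common site had 8 in the control and 13 in the TGF-β1 list. Another there had 10 and 5. Of the 12 HAVCR1 peaks in each list, 8 control and 7 TGF-β1 peaks overlapped a peak of the other list.

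**Figure D2:**
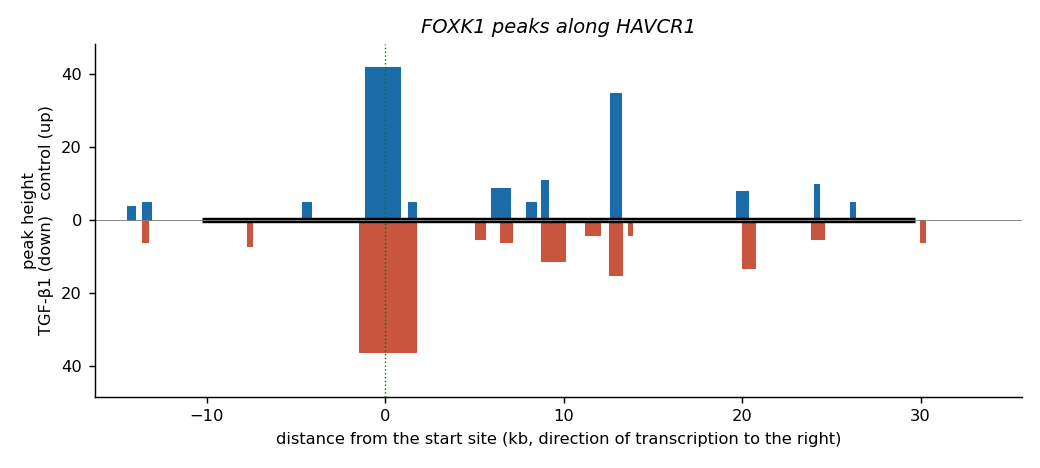
FOXK1 peaks along HAVCR1, with distance from the tabulated start in kb on the horizontal axis and the authors' peak height on the vertical axis, control upward in blue and TGF-β1 downward in red. The black bar is the annotated gene body and the dotted line the start. The peaks of 42 and 36 straddle the start, and those of 35 and 15 lie 12.9 kb past it.

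Among the secreted proteins, LCN2 (neutrophil gelatinase-associated lipocalin, which binds iron-carrying siderophores) had a peak at its start on chromosome 9. The control peak had a height of 12, from 128148480 to 128149548, and covered the start at 128149453. The TGF-β1 peak had a height of 10, from 128148834 to 128149398, lay wholly inside the control peak and ended 55 bp short of the start. Both were below the strong heights, and 50.2% and 52.8% of protein-coding genes had a highest peak at least this high. The other LCN2 peaks, 1 in the control and 3 in the TGF-β1 list, had heights of 5 or 6.

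SPP1 (osteopontin, a secreted phosphoprotein that binds integrins and CD44) had 5 control and 7 TGF-β1 peaks in a window of 17.7 kb on chromosome 4, the most per length of the 10 genes in the TGF-β1 list (3.96 per 10 kb). Its start at 87975714 was covered in the control list by a peak of 18, from 87974875 to 87975903, and in the TGF-β1 list by one of 9, from 87975395 to 87976395, and these overlapped by 509 bp. A second site before the start had a height of 13 in each list. It lay 1939 bp from the start in the control and 1344 bp in the TGF-β1 list, and overlapped the long non-coding RNA gene LOC124900730. In the control list SPP1 also had peaks of 10 inside the gene, with no TGF-β1 peak for 1772 bp, and of 12 past its end, where 2 TGF-β1 peaks of 6 and 7 overlapped it. The start site was thus the highest SPP1 peak in the control list and the upstream site the highest in the TGF-β1 list.

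CLU (clusterin, a secreted chaperone) had 8 control and 7 TGF-β1 peaks. The highest in either list lay over the gene's higher-coordinate end, at 27614700 on chromosome 8, with a height of 14 from 27614583 to 27615027 in the control list and 7 from 27614136 to 27615040 in the TGF-β1 list. The other CLU peaks had heights of 4 to 7. Just beyond the same end, a control peak of 7 was overlapped by TGF-β1 peaks of 5 and 6, and no other CLU peaks were common.

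CCL2 (monocyte chemoattractant protein) is the shortest of the 10 genes, and 0 peaks touched its gene body, from 34255285 to 34257203 on chromosome 17. Its highest peak lay outside the lower-coordinate end, by 2217 bp in the control and 2311 bp in the TGF-β1 list, with heights of 10 and 9. The TGF-β1 peak, from 34252705 to 34252974, lay wholly within the control peak. Of the other 3 CCL2 peaks, those of the control list had heights of 3 and 4 and that of the TGF-β1 list 4.

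VCAM1, CD44 and ITGB6 had their highest peaks more than 1 kb from a start in both lists, as did PROM1. No share over all genes was computed for this. VCAM1 encodes the endothelial adhesion receptor for leukocyte integrins and marks tubule cells that fail to repair. No peak lay closer to its start at 100719742 on chromosome 1 than 5543 bp in the control and 4449 bp in the TGF-β1 list. Its 1 common site was inside the gene, 17.2 kb past the start, with a height of 15 in the control list, from 100736763 to 100737173, and of 17 in the TGF-β1 list, from 100736800 to 100737331. That site passed the minimum for a strong peak, 15, in the treated cells and missed the minimum, 17, in the untreated cells. The remaining 3 control and 4 TGF-β1 peaks of VCAM1 had heights of 5 to 7.

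CD44, the receptor for hyaluronan, had 24 control and 27 TGF-β1 peaks in 103.2 kb on chromosome 11. Of these 10 and 12 were common, the most by count of the 10 genes. As a share of the peaks this was below HAVCR1, where 8 and 7 of 12 were common. The peak over the CD44 start at 35139171 was low, with a height of 9 in the control and 6 in the TGF-β1 list. Its highest control peak, of 25 from 35162945 to 35163807, lay 24.2 kb past the start and overlapped the small nucleolar RNA gene SNORD164, and the TGF-β1 peak at that place had a height of 8. Another site, 75.7 kb past the start by the control peak and overlapping the antisense gene CD44-AS1, had a height of 17 in each list, from 35214306 to 35215462 in the control list. A peak beyond the end of the gene had 8 in the control and 13 in the TGF-β1 list. These 3 were the common CD44 sites away from the start with the greatest heights in either list. Other common sites were lower, among them one of 9 in the control and 10 in the TGF-β1 list. Heights at unknown depth are no measure of change.

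ITGB6 encodes the epithelial integrin subunit that pairs with αv to activate latent TGF-β. It had 24 control and 23 TGF-β1 peaks in 110.6 kb on chromosome 2, and its start at 160200272 had no peak within 1 kb in either list. The highest peak lay before the start, with a height of 19 in the control list, from 160205209 to 160206120, and of 15 in the TGF-β1 list, from 160204928 to 160206150. These peaks only reach into the 5 kb flank, since their near edges were 4937 and 4656 bp from the start. Without the flank the highest ITGB6 peak was 10 in the control and 7 in the TGF-β1 list, and ITGB6 would not be strong. Of the other ITGB6 peaks, 1 control peak had a height of 10 and the rest of both lists had 3 to 7.

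SOX9 and PROM1 are both tied to the regenerative state of the tubule. Neither had a strong peak, and nor did LCN2, CLU or CCL2. Of all protein-coding genes, 31.1% (control) and 29.9% (TGF-β1) had one. SOX9, a transcription factor of repairing tubule cells, had 3 control peaks of heights 7, 5 and 6 and 1 TGF-β1 peak of 5, with 0 common. The peaks of 7 and 5 lay in the antisense gene SOX9-AS1. A highest peak at or above those of SOX9 was present at 80.1% (control) and 90.7% (TGF-β1) of all protein-coding genes. PROM1 (CD133, a membrane protein of scattered and regenerating tubule cells) had the longest window, of 125.8 kb, with 22 control and 29 TGF-β1 peaks, with heights from 3 to 10. Its highest peaks, of 9 and 10, were matched or exceeded at 66.3% and 52.8% of all protein-coding genes. The control list had no peak within 1 kb of any of the 4 PROM1 starts, and the TGF-β1 list had one of height 5 over the innermost, at 16076118 on chromosome 4. These highest PROM1 peaks, of 9 in the control list at 3 places (one of them in the neighbouring gene FGFBP2) and of 10 in the TGF-β1 list, did not overlap between the lists, apart from 1 control peak of 9 that overlapped a TGF-β1 peak of 7.

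**Figure D3:**
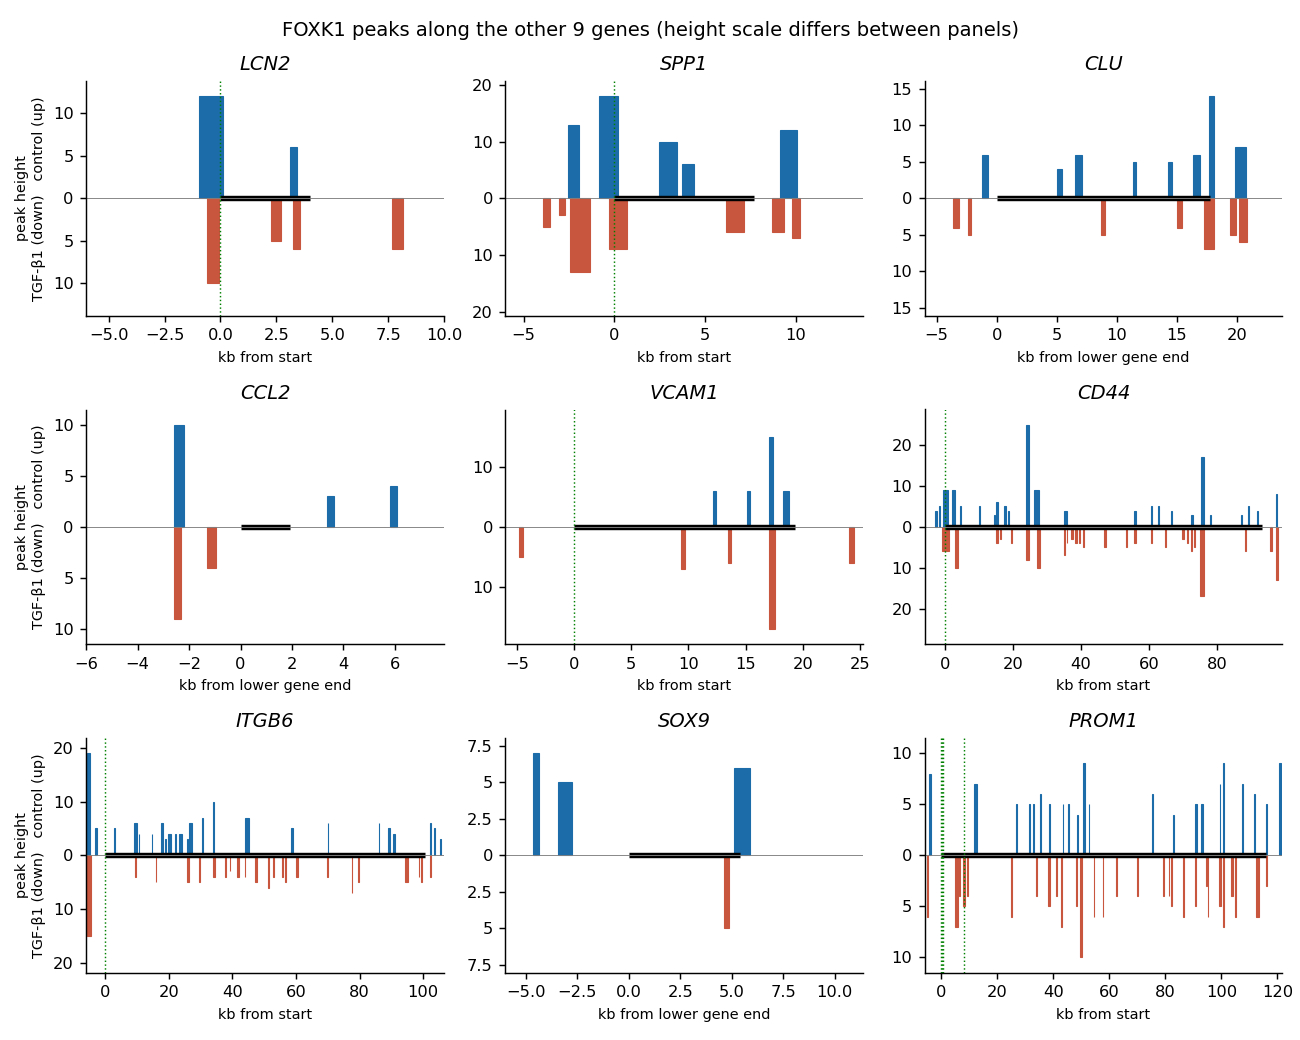
FOXK1 peaks along the other 9 genes, with distance in kb from the first start (dotted green, direction of transcription to the right) or, for CLU, CCL2 and SOX9, from the lower-coordinate gene end. Control heights point up in blue and TGF-β1 heights down in red, each panel has its own height scale, and the black bar is the gene body. Peaks at a start include those of SPP1 (18 and 9) and of LCN2 (12 and 10, both below the strong heights). Others lie inside the gene for VCAM1 (15 and 17), before it for ITGB6 (19 and 15), and in the body of CD44 (25 and 8, then 17 and 17).

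Most peaks near these genes were low. Of the 107 control peaks 55 had heights of 3 to 5, 36 of 6 to 9 and 16 of 10 or more, and of the 117 TGF-β1 peaks the numbers were 68, 36 and 13. The median height was 5 in either list, the same as over all peaks. The density of peaks was 2.25 per 10 kb in the control and 2.35 in the TGF-β1 list by the median gene, against 1.61 and 1.80 over all protein-coding genes, and 8 and 7 of the 10 genes were above those values. The 75th percentile of all genes was 2.20 and 2.41. The TGF-β1 list had more peaks at 5 of the genes, fewer at 4 and as many at HAVCR1. By place, 78 control and 87 TGF-β1 peaks overlapped gene bodies more than 1 kb from a tabulated start. For CLU, CCL2 and SOX9 the distance was to either gene end. Peaks near the far end of the other genes are among them, and the same was not counted over all genes.

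Higher peaks had a counterpart in the other list more often, at the 10 genes as over all protein-coding genes. Of the control peaks of the 10 genes, 38 of 107, or 35.5% (exact binomial 95% interval 26.5 to 45.4), overlapped a TGF-β1 peak, and of the TGF-β1 peaks 41 of 117, or 35.0% (26.5 to 44.4), overlapped a control peak. Over all peaks in the windows of protein-coding genes the shares were 30.4% and 26.7%, both inside those intervals, which cover counting error only. At heights of 3 to 5 the shares of the 10 genes were 18.2% and 22.1%, beside 15.4% and 14.6% over all genes. At 6 to 9 they were 36.1% and 41.7%, beside 32.4% and 33.4%. At 10 or more they were 93.8% (15 of 16) and 84.6% (11 of 13), beside 86.3% and 89.2%. The 3 peaks of height 10 or more without a counterpart, named after their values were seen, were those inside SPP1 in the control and inside PROM1 and CD44 in the TGF-β1 list, each of height 10. Every strong peak of these genes, 6 in the control and 5 in the TGF-β1 list, overlapped a peak of the other list, as did 98.4% and 98.1% of the strong peaks in the windows of all protein-coding genes.

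**Figure D4:**
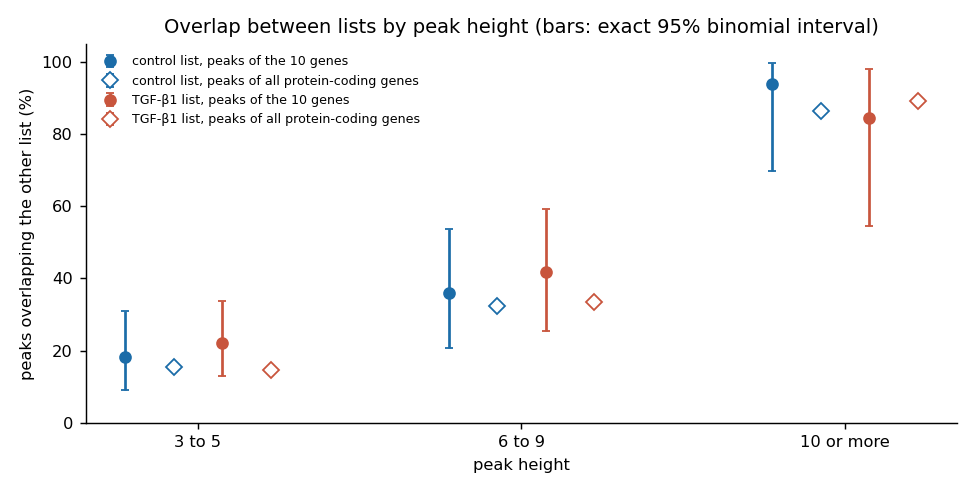
Share of peaks that overlap a peak of the other list by at least 1 bp (vertical axis, percent) in 3 classes of peak height, for the 10 genes (filled) and for all protein-coding genes (open), control in blue and TGF-β1 in red. Bars are exact 95% binomial intervals and cover counting error only. The share of the 10 genes rises from 18.2% and 22.1% at heights of 3 to 5 to 93.8% and 84.6% at 10 or more, and each of these intervals holds the value for all genes.

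A wider list of 34 other injury and repair genes, among them injury-induced chemokines, keratins, integrins, EGFR ligands and early response factors, was read the same way. A peak was present at 33 of them in the control and at 34 in the TGF-β1 list, the exception being TFF3, a trefoil peptide. Strong peaks were at 16 of the 34 in each list, beside the 31.1% and 29.9% of all protein-coding genes, and 15 genes were strong in both. Windows of 100 kb or more belonged to 5 of the 34, of which 3 were strong in each list, beside 47.8% of all such genes in either. Of the 29 shorter ones 13 were strong in each list, beside 27.2% and 25.8%. The median highest peak was 14 and 13. Of the 24 with a start in the table, 22 and 21 had a peak within 1 kb of it, beside 71.0% and 70.0% of all genes. A start-site peak of height 10 or more was at 12 and 11 of the 24, beside 41.8% and 34.4%.

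The 6 with the highest peaks carried common sites. TIMP2, a metalloproteinase inhibitor used as a urinary marker of tubular stress, had overlapping peaks of 75 in the control and 58 in the TGF-β1 list inside the gene. KRT7, a simple-epithelium keratin, had 59 and 40 inside the gene, and the growth factor receptor EGFR 45 and 34. CXCL8, the neutrophil chemokine interleukin-8, was the 1 gene of the 4 with a tabulated start whose highest peak covered it, with 48 and 52, from 73740342 to 73741741 on chromosome 4 in the control list. ATF3, a stress-induced transcription factor, had 2 common sites in its window, of 37 and 40 at one and of 35 and 41 at the other. KLF6, an early injury-response factor, also had 2, of 25 and 27 at one and of 11 and 36 at the other. HAVCR1, with 42 and 36, was therefore below TIMP2, KRT7 and CXCL8 in both lists.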

How the data were processed

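FOXK1 ChIP-seq peaks were compared between untreated HK-2 cells and cells given TGF-β1, with 1 FOXK1 library and 1 input each. The submitters' processing notes name hg38, MACS2 2.1.1.20160309 and bcl2fastq 2.17. Not given in the sources used here were the aligner, filters, threshold and depth. The authors deposited 1 peak list per condition, not pooled, and the signal of a peak is a whole number read as pileup height. Starts were read as counting from 0, which leaves an uncertainty of 1 bp. Peaks on unplaced contigs, 394 and 506, were not used.

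Genes and start sites came from RefSeq tables (GRCh38.p14), where all 10 symbols matched and 7 had a start. Exons were not used here. Overlap needed 1 bp. Python 3.11.15, numpy 2.4.6, pandas 2.3.3, scipy 1.17.1 and matplotlib 3.10.9 were used, and the overlap search was tested on simulated data. The members and lists were chosen with earlier results of these data known, and the division at 100 kb, the height classes and the start height of 10 after the peaks were seen. The genes named are the 10 members and the 6 of the wider list with the highest peak. Alternatives changed the flank, peak height, overlap, definition of strong and distance from the start. Intervals are exact binomial.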

Additional observations from a re-analysis of the deposited data

How the results depend on the processing

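Of 36 counts and shares computed again under another flank, height minimum, overlap, definition of strong or start distance, 27 stayed within 1.5 times the reported count or within the interval of the reported share. The other 9 all came from a height minimum. With peaks of height 5 or more the TGF-β1 list had 77 member peaks, and with 10 or more the lists had 16 and 13. Strong peaks were at 8 and 7 genes with a minimum of 10, and at 2 and 1 with a minimum of 20. The share of overlapping peaks was 93.8% and 84.6% at heights of 10 or more. Of 40 highest heights computed again with 0 or 10 kb of flank, 32 were equal. With 0 kb the control values became 6 for SOX9, 10 for ITGB6 and 0, meaning no peak, for CCL2, and the TGF-β1 values 6 for LCN2, 9 for SPP1, 7 for ITGB6 and 0 for CCL2. With 10 kb CLU had 12 in the TGF-β1 list. No paired analysis was possible because each condition had 1 FOXK1 library. Unknown depth limits any comparison of heights or peak numbers between the lists.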

Other observations

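Some peaks without a counterpart had a close neighbour in the other list, and these were picked after their values were seen. In CD44, a control peak of height 9 and a TGF-β1 peak of height 10 were 55 bp apart. In PROM1, a control peak of 9 and a TGF-β1 peak of 10 were 250 bp apart. In SOX9, the control peak over the higher-coordinate gene end, of height 6, and the only TGF-β1 peak, of height 5, were 220 bp apart.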
